A study of Mus musculus with 18 samples.

Results

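The 8 genes described here encode the vascular and leukocyte molecules that hold white blood cells to the vessel wall: the endothelial selectins Sele and Selp, the selectin ligand Selplg, the immunoglobulin-family counter-receptors Icam1, Icam2 and Vcam1, and the junctional adhesion molecules F11r and Jam2. They were taken by name from the 30583 genes of a count table of mouse heart after myocardial infarction. All 8 were found, and all 8 passed the filter on low counts that left 16311 genes for testing. The mice were 18 male C57BL/6JR animals of 12 weeks in 6 groups of 3, with no transgene or gene deletion named. In 5 groups the left anterior descending coronary artery was tied under sodium pentobarbital to cause an infarct, and the heart was taken after 10 min or 1, 6, 24 or 72 h. In the sham operation the suture was placed but left untied, and the sham label gives 0 h, so the controls stand for 1 time only. The anaesthetic dose is 50 mg/kg in the study's description, while the sample labels run from 50 to 63 mg/kg. In the ligated mice RNA came from the infarcted part of the left ventricle, while the sham hearts, with the suture untied, had no such part.

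Leukocytes leave the blood in steps. Selectins on endothelium and platelets catch sugar-bearing ligands on passing leukocytes, which then roll along the wall. Integrins on the leukocyte, once activated, bind the ICAMs and VCAM on the endothelium and stop the cell, and junctional adhesion molecules take part in the passage between endothelial cells. In the infarcted heart this route brings in neutrophils first and monocytes later. E-selectin and most of endothelial ICAM and VCAM are made after cytokines such as tumour necrosis factor and interleukin act through NF-kB, whereas ICAM2 and the junctional molecules are made by resting endothelium. P-selectin is also stored ready-made, in Weibel-Palade bodies of endothelium and in granules of platelets, so its messenger RNA is not a measure of the protein at the surface.

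Sele and Selp lie near each other on chromosome 1, and both of them and Icam1 had their highest group means at 6 h. The sequence before the transcription start of these 3 members is therefore shown, as 250 bases upstream in the RefSeq annotation of GRCm38.p6, 5′ to 3′ on the plus strand. Capitals mark matches to an NF-kB motif, GGNNNTTCC, and an AP-1 motif, TGANTCA, searched on both strands. The Sele run is chr1:164047984-164048233, the Selp run is chr1:164115014-164115263 and the Icam1 run is chr9:21015690-21015939.
Sele: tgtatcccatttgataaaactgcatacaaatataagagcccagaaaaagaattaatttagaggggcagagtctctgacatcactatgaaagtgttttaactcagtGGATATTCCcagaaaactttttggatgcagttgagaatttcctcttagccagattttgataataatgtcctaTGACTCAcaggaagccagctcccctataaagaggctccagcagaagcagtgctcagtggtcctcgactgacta
Selp: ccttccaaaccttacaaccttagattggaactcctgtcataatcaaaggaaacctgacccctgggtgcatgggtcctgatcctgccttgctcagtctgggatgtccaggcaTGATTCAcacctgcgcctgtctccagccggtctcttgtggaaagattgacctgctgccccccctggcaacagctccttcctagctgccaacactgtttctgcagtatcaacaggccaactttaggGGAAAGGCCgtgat
Icam1: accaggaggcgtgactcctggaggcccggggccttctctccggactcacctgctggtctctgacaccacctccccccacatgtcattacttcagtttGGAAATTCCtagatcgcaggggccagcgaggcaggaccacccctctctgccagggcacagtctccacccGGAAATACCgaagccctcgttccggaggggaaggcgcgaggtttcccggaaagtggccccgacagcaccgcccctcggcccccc
The RefSeq start lies at the GENCODE M21 gene start for Sele and Selp, and 45 bases upstream of it for Icam1, whose distances below are from the RefSeq start. The NF-kB letters began 145 bases before the start site of Sele as GGATATTCC. In Selp they lay 14 bases before it, read on the minus strand. Icam1 held them at 153 bases, where the 9 letters match on both strands, and again at 84 bases on the minus strand. The AP-1 letters stood 73 bases before the start in Sele and 139 bases before it in Selp, and had no match in the Icam1 run. Of 32851 RefSeq promoter windows of the same length, 15.7% held the NF-kB letters and 6.75% the AP-1 letters. Sele also held TATAAA at 49 bases and AGGAAG, the core bound by ETS factors, at 65 bases, letters present in 12.4% and 29.5% of windows. These are matches of letters, and binding was not measured. The table of promoters matched 4 of the 8 genes. The fourth, F11r, had no match to the NF-kB letters and 1 to the AP-1 letters, 109 bases before its start.

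The libraries held 18.2 to 25.1 M counts, where M stands for mega. Levels below are counts per M counts after TMM scaling (CPM), with mean ± SD over 3 mice, and changes are log2 fold changes of edgeR's quasi-likelihood model. A gene is called where the p-value adjusted over all 16311 genes is under 0.05. Cardiomyocytes are the labelled cell type, but no cell separation is described, and markers of other cells were present throughout: in sham, 12 endothelial markers summed to 1974 to 2119 CPM and 9 cardiomyocyte markers to 71353 to 77318 CPM. By 72 h the cardiomyocyte sum was 18217 to 24160 CPM and the endothelial sum 1132 to 1428 CPM, while 5 general leukocyte markers, at 57.2 to 73.1 CPM in sham, reached 825 to 895 CPM. In such bulk tissue, fewer cells of a type and less RNA per cell cannot be told apart. Scaling matters for small changes: when libraries are scaled by their totals instead of TMM, the median log2 change of all genes against sham moves from -0.01 to -0.12 at 6 h, from 0.01 to 0.20 at 24 h and from 0.03 to 0.61 at 72 h. Genes called higher and lower than sham then number 1914 and 2802 at 6 h, 5558 and 1805 at 24 h, and 9472 and 2382 at 72 h, in place of 2653 and 1986, 3860 and 3289, and 5572 and 5259.

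Nothing among the 8 genes was called in the first hour. Sele, Selp, Selplg, Icam1 and Vcam1 were higher than in sham at 6, 24 and 72 h, and Jam2 was lower at these 3 times. At 10 min 0 of 8 were called, where edgeR called 0.0736% of all genes, and none of the 8 had an unadjusted p under 0.05, which 1144 genes had. At 1 h 0 of 8 were called against 0.294% of all genes. Sele and Vcam1 had an unadjusted p under 0.05 at 1 h, as did 899 genes in all. Without overlap, Selplg alone was above sham at 10 min, as were 11% of all genes, and Icam1, Vcam1 and F11r were above sham at 1 h, as were 8.25% of all genes. At 6 h 6 of 8 were called against 28.4% of all genes, 5 higher against 16.3% and 1 lower against 12.2%. Without 6 h replicate 1 the share of all genes called at 6 h was 17.5%, or 2926 genes in place of 4639, and Selplg was then not called. At 24 h the count was again 6 of 8 against 43.8%, with 5 higher against 23.7% and 1 lower against 20.2%. At 72 h it was 7 of 8 against 66.4%, with 5 higher against 34.2% and 2 lower against 32.2%, and F11r, 1 of those 2, was called higher when libraries were scaled by their totals. All comparisons with sham use the same 3 sham libraries. An F test over the 6 groups called 7 of 8, against 78.4% of all genes, and Icam2 was the one not called.

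**Figure D1:**
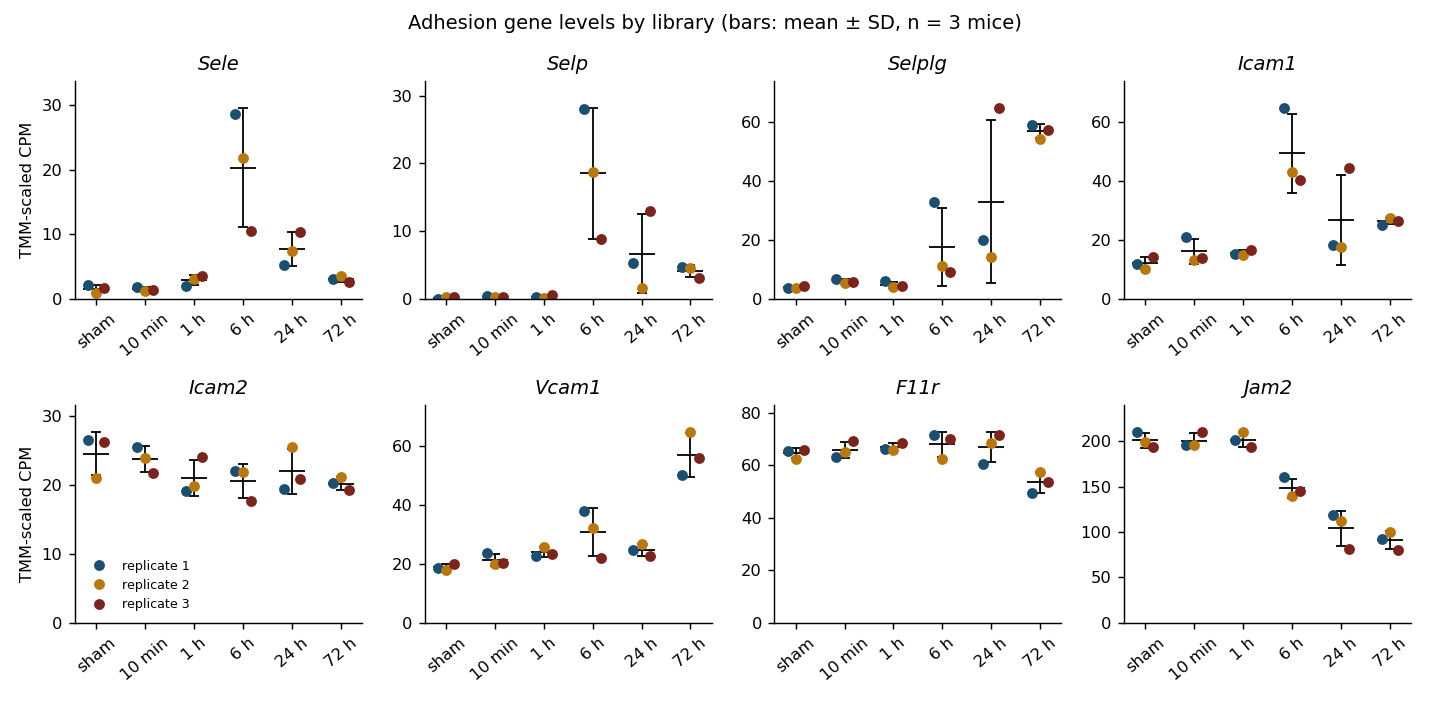
TMM-scaled CPM (vertical axes, linear, each from 0) of the 8 adhesion genes in each of 18 libraries by group; points are mice, coloured by replicate number, and bars are mean ± SD, n = 3. Sele, Selp and Icam1 have their highest means at 6 h with wide spread between mice, Selplg and Vcam1 at 72 h, and Jam2 is lowest at 72 h.

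Sele encodes E-selectin, which activated endothelium makes and which slows rolling neutrophils and monocytes. Its level in the 3 sham hearts was 2.07, 0.83 and 1.69 CPM, and at 10 min it was 1.9, 1.2 and 1.4 CPM. At 1 h it was 2.03, 3.02 and 3.56 CPM, and at 6 h it was 28.7, 21.8 and 10.5 CPM. All mice at 6 h thus stood above every mouse of the earlier groups, with replicate 3 at less than the other two. At 24 h the level was 5.27, 7.43 and 10.4 CPM, and at 72 h 3.03, 3.59 and 2.58 CPM, which was still above each sham heart. The change against sham was 3.72 ± 0.39 (SE) at 6 h, 13.2-fold, with an edgeR adjusted p of 7.41e-06. It was 2.32 ± 0.38 at 24 h (edgeR adjusted p = 0.000205) and 1.00 ± 0.39 at 72 h (edgeR adjusted p = 0.0335). Sele therefore rose by 6 h and had come down in steps: by -1.40 ± 0.33 from 6 to 24 h (edgeR adjusted p = 0.00513) and by -1.32 ± 0.35 from 24 to 72 h (edgeR adjusted p = 0.00440). The 72 h call for Sele ended without sham replicate 2 (log2 change 0.70, edgeR adjusted p = 0.146), sham replicate 3 (0.0600), 72 h replicate 1 (0.0596) or 72 h replicate 2 (0.101), and with no filter on low counts (0.0926). With only the libraries compared in the fit, the 6 to 24 h call for Sele ended (edgeR adjusted p = 0.0759), and limma on log2 FPKM ended the 24 to 72 h call (adjusted p = 0.0806).

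Selp encodes P-selectin, the selectin of platelets and endothelium. Its messenger was close to absent in uninjured tissue: sham replicates 1, 2 and 3 held 0, 4 and 7 reads, or 0, 0.21 and 0.31 CPM. A count of 0 in sham replicate 1 allows up to 3 counts, which would be 0.15 CPM of Selp. At 10 min the level was 0.37, 0.34 and 0.28 CPM and at 1 h 0.34, 0.12 and 0.53 CPM, in the range of a few reads. At 6 h it was 28.0, 18.8 and 8.79 CPM, and no earlier library came near the lowest of these. At 24 h the 3 hearts differed widely, at 5.35, 1.66 and 13.0 CPM, and at 72 h they lay close together at 4.64, 4.60 and 3.09 CPM. The change against sham was 6.66 ± 0.85 at 6 h (edgeR adjusted p = 7.85e-05), 5.16 ± 0.87 at 24 h (edgeR adjusted p = 0.000349) and 4.49 ± 0.88 at 72 h (edgeR adjusted p = 0.000398). These sizes rest on few sham reads: leaving out 1 library at a time moved the 6 h value of Selp from 6.11 to 7.42, and the sham mean of 0.17 CPM became 0.10 without sham replicate 3 and 0.26 without sham replicate 1. Without 24 h replicate 3 the 24 h mean of Selp went from 6.67 to 3.51 CPM, and the call at 24 h held in each alternative that kept the gene. From 6 to 72 h Selp fell by 2.17 ± 0.57 on the log2 scale (edgeR adjusted p = 0.00380).

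Other genes overlap Selp on the opposite strand, and the use of strand in counting is not given in the sources used here. The overlapping genes Gm16587 and Gm16548 held 3 and 8 counts over all 18 libraries.

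Selplg encodes the P-selectin glycoprotein ligand, carried by leukocytes, which binds P-selectin and the other selectins. Its highest group mean was at 72 h, where it was called above 6 h; the steps from 6 to 24 h (log2 change 0.89, edgeR adjusted p = 0.222) and from 24 to 72 h (0.80, 0.206) were not called. Sham hearts held 3.69, 3.53 and 4.31 CPM, and the 10 min hearts 6.72, 5.37 and 5.64 CPM, all above sham though not called (log2 change 0.61 ± 0.62, edgeR adjusted p = 0.915). At 1 h Selplg was at 6.04, 4.09 and 4.26 CPM, overlapping sham. At 6 h the values were 32.9, 11.2 and 8.95 CPM and at 24 h 19.9, 14.1 and 64.7 CPM, so in each of these groups 1 heart stood far above the other two. At 72 h the 3 hearts agreed closely at 59.0, 54.3 and 57.2 CPM. The change of Selplg against sham was 2.19 ± 0.59 at 6 h (edgeR adjusted p = 0.0140), 3.08 ± 0.59 at 24 h (edgeR adjusted p = 0.00102) and 3.88 ± 0.59 at 72 h, 14.7-fold (edgeR adjusted p = 5.74e-05). Without 6 h replicate 1 the 6 h mean of Selplg went from 17.7 to 10.1 CPM and the call was lost (log2 change 1.39, edgeR adjusted p = 0.0887), and limma on log2 FPKM lost it too (adjusted p = 0.0797). Without 24 h replicate 3 the 24 h mean went from 32.9 to 17.0 CPM, and the call stayed.

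Markers of leukocytes moved with Selplg. The 5 general leukocyte markers summed to 270, 138 and 90.8 CPM in 6 h replicates 1, 2 and 3, and to 270, 265 and 571 CPM at 24 h. The 8 neutrophil markers summed to 797, 279 and 107 CPM at 6 h, to 164, 38.4 and 706 CPM at 24 h and to 53.9, 61.5 and 65.1 CPM at 72 h, from 2.33 to 3.68 CPM in sham with Ly6g at 0. The 3 hearts stood in the same order for the neutrophil sum as for Selplg, Selp and Icam1, both within 6 h and within 24 h. Sele shared that order at 6 h and not at 24 h. The order was not particular to neutrophil markers, as the general leukocyte sum had it in both groups. So did the sum of 8 platelet markers, at 74.3, 32.8 and 23.6 CPM at 6 h and 57.7, 41.5 and 106 CPM at 24 h. The sum of monocyte and macrophage markers had it at 6 h only. The 8 monocyte and macrophage markers summed to 203 to 232 CPM in sham, 194 to 298 CPM at 6 h and 2851 to 3644 CPM at 72 h. Though the sums overlapped at 6 h, 5 of the 8 were called higher and 1 lower, against 16.3% and 12.2% of all genes. The median log2 change of these 8 markers at 6 h was 0.84. The part of these cells in the changes of the adhesion genes was not tested.

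Icam1 is the counter-receptor through which leukocyte integrins of the Itgb2 family stop the cell, and both endothelium and activated leukocytes can make it. It was 11.7, 10.2 and 14.3 CPM in sham, 21.2, 13.4 and 13.8 CPM at 10 min, and 15.4, 14.7 and 16.6 CPM at 1 h. At 1 h every heart was above every sham heart, with a log2 change of 0.36 ± 0.32 that was not called (edgeR adjusted p = 0.990). At 6 h Icam1 was 64.8, 43.2 and 40.4 CPM, above every library of the other groups except 24 h replicate 3. At 24 h it was 18.4, 17.7 and 44.6 CPM and at 72 h 25.3, 27.4 and 26.5 CPM, above sham in all 6 hearts. The change against sham was 2.03 ± 0.31 at 6 h, 4.08-fold (edgeR adjusted p = 0.000317), 1.14 ± 0.31 at 24 h (edgeR adjusted p = 0.00808) and 1.12 ± 0.31 at 72 h (edgeR adjusted p = 0.00478). The 24 h call for Icam1 ended when the fit held only the libraries compared (edgeR adjusted p = 0.0524), and its log2 change went as low as 0.58 with 1 library left out.

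Vcam1 is the counter-receptor of the integrin pair Itga4 and Itgb1 on monocytes and lymphocytes, made by endothelium and also by stromal cells. It was 18.4, 17.9 and 20.0 CPM in sham, 23.7, 20.0 and 20.1 CPM at 10 min and 22.6, 25.7 and 23.3 CPM at 1 h. At 6 h it was 37.9, 32.2 and 21.7 CPM, at 24 h 24.6, 26.5 and 22.6 CPM, and at 72 h 50.0, 64.7 and 55.7 CPM. Every heart from 1 h on was above the highest sham heart, and the 72 h hearts were above all others. The change of Vcam1 against sham was 0.70 ± 0.15 at 6 h (edgeR adjusted p = 0.00225), 0.39 ± 0.15 at 24 h (edgeR adjusted p = 0.0455) and 1.60 ± 0.15 at 72 h, 3.02-fold (edgeR adjusted p = 4.13e-08). From 24 to 72 h Vcam1 rose by 1.21 ± 0.15 (edgeR adjusted p = 2.60e-06), its largest step between neighbouring times, over the interval in which Sele fell. The 24 h call for Vcam1 was lost in 12 of 26 alternatives, with adjusted p up to 0.133 without 24 h replicate 2, 0.123 without sham replicate 2 and 0.111 without sham replicate 1, and the 6 h call was lost with limma on log2 FPKM (adjusted p = 0.0565). Fibroblast markers also rose late: 7 of them summed to 784 to 850 CPM in sham, 627 to 938 CPM at 24 h and 6722 to 8893 CPM at 72 h. Their median log2 change at 72 h was 1.30, and their part in the Vcam1 value was not tested.

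Icam2, the ICAM that resting endothelium and platelets carry, was called at no time. It was 26.5, 21.0 and 26.2 CPM in sham, 22.1, 21.9 and 17.7 CPM at 6 h, 19.4, 25.6 and 20.9 CPM at 24 h and 20.2, 21.2 and 19.2 CPM at 72 h, so each of these groups overlapped sham. The log2 change of Icam2 was -0.26 at 6 h (edgeR adjusted p = 0.144), -0.16 at 24 h (0.325) and -0.28 at 72 h (0.0585). Its sign depended on scaling, with 0.04 at 24 h and 0.30 at 72 h when libraries were scaled by their totals. With library totals Icam2 was also called higher against 6 h, by 0.41 at 24 h (edgeR adjusted p = 0.0263) and by 0.67 at 72 h (0.000276). The 72 h value passed the threshold, as a lower level, in 6 of the 26 alternatives, the lowest adjusted p being 0.0184 without sham replicate 2.

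F11r encodes JAM-A, found at tight junctions of endothelium and epithelium and on platelets and leukocytes. It stayed within 60.6 to 71.6 CPM in all 15 libraries from sham to 24 h. At 72 h it was 49.5, 57.5 and 53.4 CPM, below every other library, with a log2 change against sham of -0.27 ± 0.08 (edgeR adjusted p = 0.00847). This direction rests on the scaling: with library totals the F11r value at 72 h was 0.32, called higher (edgeR adjusted p = 0.0101), and limma on log2 FPKM gave 0.30. The lower call was also lost without 72 h replicate 1 (edgeR adjusted p = 0.0511) and with no filter on low counts (0.0669).

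Jam2 encodes JAM-B, a partner of JAM-C at endothelial junctions that binds leukocyte integrins. It was at 210, 199 and 194 CPM in sham and stayed between 194 and 210 CPM in all hearts at 10 min and 1 h. It was 160, 139 and 145 CPM at 6 h, 118, 112 and 81.2 CPM at 24 h, and 91.6, 99.9 and 80.1 CPM at 72 h, so no heart from 6 h on overlapped the earlier ones. The change of Jam2 against sham was -0.44 ± 0.12 at 6 h (edgeR adjusted p = 0.00879), -0.95 ± 0.12 at 24 h (edgeR adjusted p = 1.01e-05) and -1.15 ± 0.12 at 72 h, which is 0.451 times sham (edgeR adjusted p = 1.05e-07). Scaled by library totals, Jam2 was still called lower at 72 h, by -0.56 (edgeR adjusted p = 0.000214). The later steps were less firm: from 24 h against 6 h Jam2 changed by -0.51 ± 0.12 (edgeR adjusted p = 0.00351), but by -0.21 (0.157) with library totals, and from 6 to 72 h the -0.71 ± 0.12 (edgeR adjusted p = 3.60e-05) became -0.01 (0.921).

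**Figure D2:**
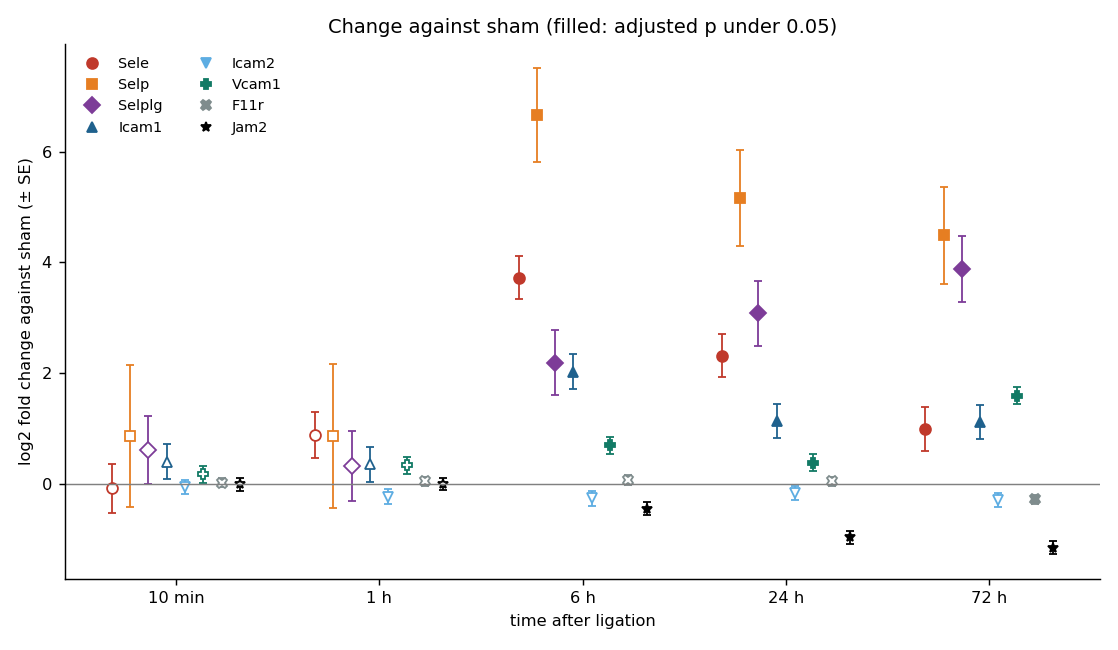
Log2 fold change against sham (vertical axis, ± SE of edgeR's quasi-likelihood fit) of the 8 adhesion genes at each time after ligation (horizontal axis); filled symbols have an adjusted p under 0.05. Nothing is filled at 10 min or 1 h, Selp reaches 6.66 at 6 h, and Jam2 falls to -1.15 at 72 h; the F11r value of -0.27 at 72 h is 0.32 when libraries are scaled by their totals.

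Steps between neighbouring times place the changes. From 10 min to 1 h 0 of 8 genes were called against 0.307% of all genes. From 1 h to 6 h 5 were called against 24.5%, 4 of them higher against 14.5% and 1 lower against 10%: Sele by 2.83 ± 0.37, Selp by 5.79 ± 0.79, Selplg by 1.86 ± 0.58 and Icam1 by 1.67 ± 0.31 upward, and Jam2 by -0.45 ± 0.12. The Selplg step from 1 h to 6 h was lost in 7 alternatives, among them leaving out 6 h replicate 1 (edgeR adjusted p = 0.200) or any 1 h replicate (0.0614, 0.101 and 0.0963 without replicates 1, 2 and 3). From 6 to 24 h 3 were called against 27.8%, all lower against 13.7%: Sele, Icam1 and Jam2. With library totals the Icam1 and Jam2 calls were lost and Icam2 was called higher (0.41, edgeR adjusted p = 0.0263). All genes then split into 6052 higher and 828 lower, in place of 2311 and 2230. F11r, at -0.02 with TMM, was positive in 4 of 26 alternatives, up to 0.29, with a lowest adjusted p over the alternatives of 0.0326. The Icam1 step of -0.88 was lost in 12 of 26 alternatives, for example without 6 h replicate 1 (edgeR adjusted p = 0.15) and without 24 h replicates 1 or 2 (0.142 and 0.140). From 24 to 72 h 3 were called against 50.5%, Vcam1 upward against 24.4% and Sele and F11r downward against 26.1%, a share below that of all genes, and without 24 h replicate 3 the count was 6. The F11r step from 24 to 72 h turned to 0.067 with library totals and 0.068 with limma on log2 FPKM. The share of all genes called from 1 h to 6 h was 14.8% without 6 h replicate 1 and 15.9% without 1 h replicate 2.

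Between 6 and 72 h 7 of 8 genes were called with TMM scaling, against 63% of all genes. Sele, Selp, Icam1, F11r and Jam2 were lower at 72 h, 5 of 8 against 31.6%. Selplg and Vcam1 were higher, 2 of 8 against 31.3%, a share below that of all genes. The same 5 and 2 did not overlap between the groups, against 32.6% and 33.9% of all genes. Selplg rose by 1.69 ± 0.52 (edgeR adjusted p = 0.0117) and Vcam1 by 0.89 ± 0.15 (edgeR adjusted p = 3.81e-05), and in both all 72 h hearts were above all 6 h hearts. Icam1 changed by -0.91 ± 0.30 (edgeR adjusted p = 0.0148), but by -0.20 (0.538) with library totals, and its call was lost without 6 h replicate 1 (0.0749). F11r changed by -0.35 with TMM and by 0.35 with library totals, and Jam2 by -0.71 with TMM and by -0.01 (edgeR adjusted p = 0.921) with library totals. With library totals all genes split into 10087 higher and 1887 lower at 72 h against 6 h, in place of 5111 and 5161. The Selplg call was lost without 6 h replicate 2 (edgeR adjusted p = 0.0530).

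Levels of different genes can be compared only per length, for which the deposited FPKM (fragments per kilobase of exon per M fragments, not TMM-scaled) was used. In sham the order of mean FPKM was Jam2 at 31.7 ± 0.97, F11r at 22.5 ± 1.23, Icam2 at 12.0 ± 1.74, Icam1 at 2.58 ± 0.52, Vcam1 at 1.96 ± 0.17, Selplg at 0.84 ± 0.12, Sele at 0.49 ± 0.20 and Selp at 0.037 ± 0.034. Neighbours in this order did not overlap except Icam1 and Vcam1, so the genes known from resting endothelium led and the selectins came last. The order was the same at 10 min and 1 h, with Selplg and Sele overlapping at 1 h.

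At 6 h F11r (21.9 FPKM) and Jam2 (21.6 FPKM) overlapped at the top. Below them Icam1 at 9.70, Icam2 at 9.27, Sele at 5.97, Selp at 3.58, Selplg at 3.50 and Vcam1 at 2.96 FPKM each overlapped the next, so no 2 neighbours among these 6 differed beyond their spread. Selp, at 0.037 FPKM against 12.0 FPKM for Icam2 in sham, was thus at 3.58 against 9.27 FPKM at 6 h. At 72 h the order was F11r at 28.0, Jam2 at 21.4, Selplg at 18.5, Icam2 at 14.8, Vcam1 at 8.91, Icam1 at 8.42, Sele at 1.46 and Selp at 1.29 FPKM, with overlap between Vcam1 and Icam1 and between Sele and Selp. Selplg had moved from the sixth place in sham to the third.

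**Figure D3:**
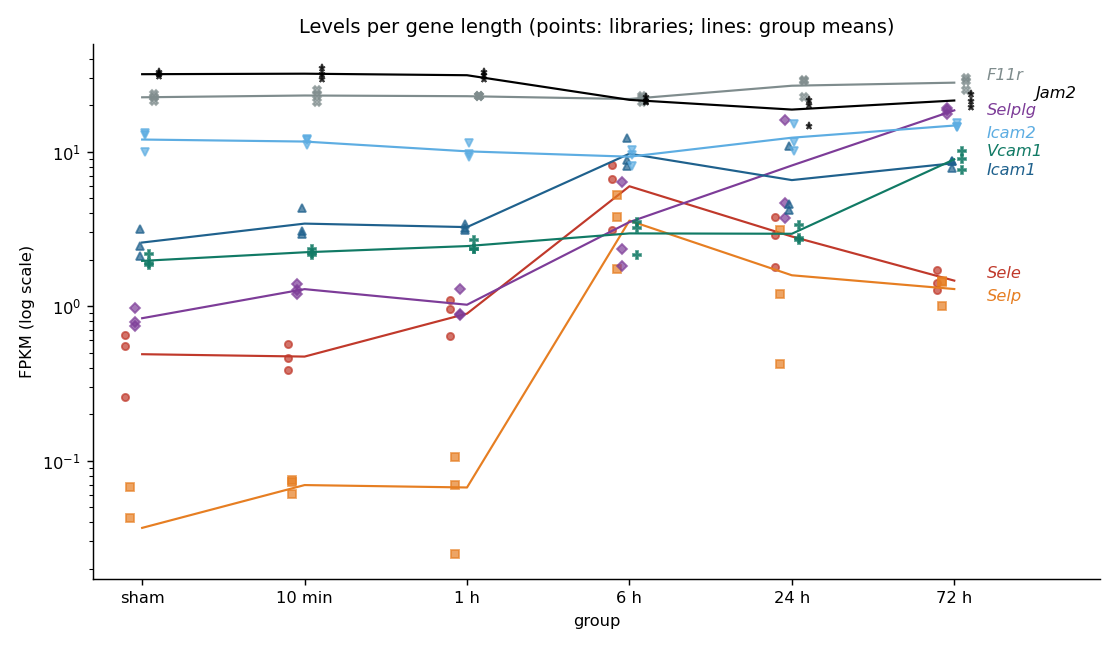
FPKM (vertical axis, log scale) of the 8 adhesion genes by group; points are libraries and lines join group means, and the Selp value of 0 in sham replicate 1 cannot be drawn on the log axis. Jam2, F11r and Icam2 lead in sham, 6 genes crowd between 2.96 and 9.70 FPKM at 6 h, and Selplg holds the third place at 72 h.

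Because the endothelial sum itself changed, members were also divided by the summed CPM of the 12 endothelial markers in the same library, which removes the scaling factor. The endothelial markers numbered 4 higher and 2 lower of 12 at 6 h, 1 higher and 5 lower at 24 h, and 1 higher and 10 lower at 72 h. Their median log2 changes were 0.05, -0.24 and -0.60. Among all genes 16.3%, 23.7% and 34.2% were higher and 12.2%, 20.2% and 32.2% lower at these times. These counts and medians are with TMM scaling. Library totals move the median of all genes at 72 h from 0.03 to 0.61. The ratio of Sele to this sum was 12.0 times its sham mean at 6 h, 6.12 times at 24 h and 3.22 times at 72 h. The ratio of Icam1 was 3.66, 2.70 and 3.54 times sham at these times, and that of Vcam1 1.47, 1.62 and 4.87 times. For Sele and Icam1 all 3 hearts of each of these groups were above all sham hearts.

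The quieter genes separated in this ratio. Jam2 was at 0.665, 0.641 and 0.723 times its sham mean at 6, 24 and 72 h, with every heart below every sham heart, so Jam2 was lower per endothelial marker too. F11r was at 0.952, 1.27 and 1.34 times and Icam2 at 0.762, 1.10 and 1.33 times sham, higher at 72 h although their TMM-scaled CPM was not. Divided by Cdh5 alone, both were at 1.17 times sham at 72 h, with the 3 hearts overlapping sham. Relative to Ptprc, the pan-leukocyte phosphatase CD45, Selplg was at 1.54, 1.60 and 1.02 times its sham mean, so at 72 h the 14.7-fold higher Selplg came with about as much more Ptprc. The ratio of Selp to 8 platelet markers was 0, 0.0097 and 0.0142 in the sham hearts, which rest on 0, 4 and 7 reads, 0.377, 0.571 and 0.372 at 6 h, and 0.0327, 0.0294 and 0.0204 at 72 h. That marker sum was 21.4 to 21.9 CPM in sham, 23.6 to 74.3 CPM at 6 h and 142 to 157 CPM at 72 h. Of 7 platelet markers tested, 3 were called higher and 1 lower at 72 h, against 34.2% and 32.2% of all genes. Their median log2 change was 0.62, so the sum does not stand for each marker. Relative to the sum of the 7 fibroblast markers Vcam1 was 1.74 times sham at 6 h and 0.323 times at 72 h. The median log2 change of these 7 markers at 72 h was 1.30, against 1.60 for Vcam1. Their sum thus rose by more than the median marker, and the 0.323 holds for the sum only. A ratio shows unequal change of its terms and does not say which cells hold the transcript.

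**Figure D4:**
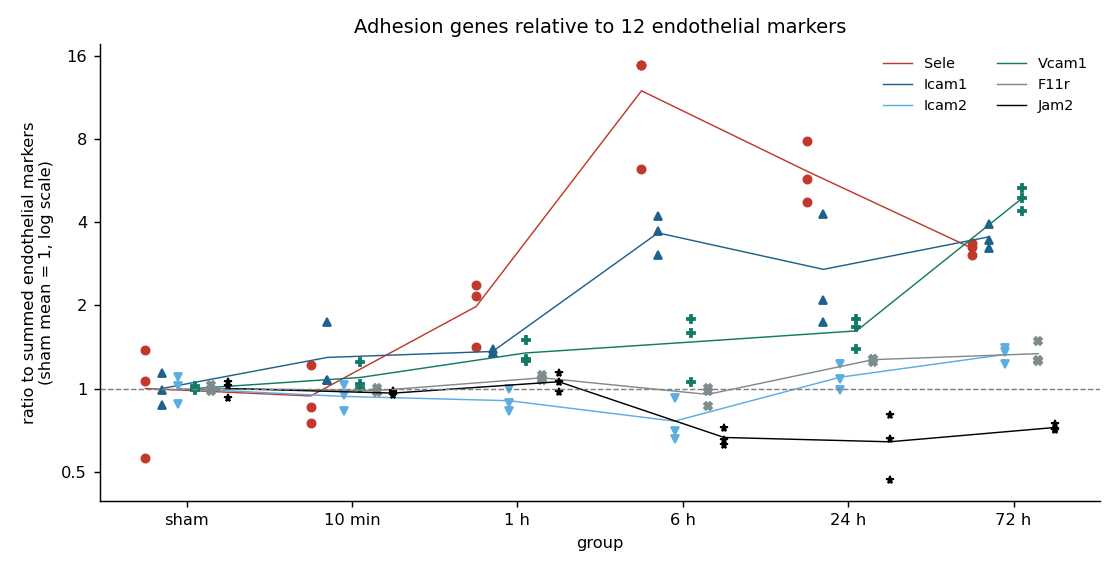
Ratio of each gene's CPM to the summed CPM of 12 endothelial markers in the same library, divided by the sham mean (vertical axis, log scale, sham mean = 1), by group; points are libraries and lines join group means. Selplg, a leukocyte gene, and Selp, with a sham library at 0, are not drawn. Sele reaches a mean of 12.0 at 6 h, Vcam1 4.87 at 72 h, and Jam2 lies below 1 from 6 h on.

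The partners of these genes were described with 5 lists, in which rose and fell are written only of called changes. Over all genes the median log2 change against sham was between -0.01 and 0.03 at every time, and the shares called higher and lower were 16.3% and 12.2% at 6 h, 23.7% and 20.2% at 24 h, and 34.2% and 32.2% at 72 h. With library totals these shares of all genes were 11.7% and 17.2%, 34.1% and 11.1%, and 58.1% and 14.6%. No list had a gene called at 10 min, and at 1 h only Klf2 and Klf4 of the list of inducers were called. Of 19 selectin partners and enzymes that build their sugars, 5 were higher and 2 lower at 6 h, 10 and 4 at 24 h, and 12 and 3 at 72 h, with medians of 0.10, 0.51 and 0.79, and with library totals the 6 h split was 4 and 3, where all genes split into 11.7% higher and 17.2% lower. B4galt1, a galactosyltransferase, had 73.3 ± 2.19 CPM in sham and rose to 139 ± 9.20 CPM by 6 h. Chst2, a sulfotransferase that modifies selectin ligands, had 3.34 ± 0.89 CPM in sham, 3.42 ± 0.18 at 6 h and 14.8 ± 2.16 at 72 h, where it was called higher by 2.14 ± 0.19. St3gal6, a sialyltransferase, fell from 26.2 ± 0.93 to 13.4 ± 1.26 CPM at 72 h. Cd44, an E-selectin ligand on leukocytes that stromal cells also express, rose from 7.02 to 52.5 CPM by 6 h and to 67.0 CPM by 72 h (edgeR adjusted p = 0.000775 and 4.55e-05).

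Integrins that bind ICAM and VCAM, and the proteins that activate them, numbered 10 of 17 higher and 1 lower at 6 h, 13 and 1 at 24 h, and 13 and 2 at 72 h, with medians of 0.95, 1.56 and 2.17. All genes were called higher at 16.3%, 23.7% and 34.2%, and lower at 12.2%, 20.2% and 32.2%, at those times. Itgb2, the shared chain of the receptors of Icam1, had 5.65 CPM in sham and rose through 18.6 CPM at 6 h and 61.3 CPM at 24 h to 110 CPM by 72 h (edgeR adjusted p = 0.0108, 6.08e-05 and 1.46e-06). Itga4, which pairs with Itgb1 to bind Vcam1, had 1.68 CPM in sham and 2.71 at 6 h (edgeR adjusted p = 0.103), and rose to 5.03 at 24 h and 17.9 at 72 h (0.000326 and 7.85e-09). Fermt3, the kindlin of blood cells, rose from 5.19 ± 0.47 to 57.4 ± 3.58 CPM at 72 h. Itgax and Apbb1ip were likewise 15.7 ± 2.68 and 24.4 ± 2.17 CPM at 72 h, from 0.47 ± 0.12 and 3.01 ± 0.46 in sham. Rasgrp2, an activator of Rap, fell from 55.8 to 17.6 CPM at 72 h (edgeR adjusted p = 3.58e-08).

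Other immunoglobulin-family and junction genes changed in both directions. Of 17 tested, 7 were higher and 3 lower at 6 h, 6 and 3 at 24 h, and 4 and 8 at 72 h, with medians of 0.36, 0.14 and -0.35, but with library totals the last split was 7 and 3. Against these counts, 16.3%, 23.7% and 34.2% of all genes were higher and 12.2%, 20.2% and 32.2% lower, and 58.1% and 14.6% at 72 h with library totals, so the 4 of 17 higher at 72 h lay below the share of all genes. Cldn5, a claudin of endothelial tight junctions, had 24.9 CPM in sham, rose to 108 CPM by 6 h and stood at 42.0 CPM by 72 h (edgeR adjusted p = 6.84e-05 and 0.0202). Pecam1 rose from 230 to 368 CPM at 6 h (edgeR adjusted p = 0.000579) and was 205 CPM at 72 h (0.254). Jam3, which encodes the JAM-C that binds Jam2, fell from 17.5 CPM to 12.1, 11.5 and 12.0 CPM at 6, 24 and 72 h (edgeR adjusted p = 0.00868, 0.00208 and 0.00207). With TMM scaling Jam3 was thus lower at the same times as Jam2. Its log2 change at 72 h was -0.54. Library totals move the median of all genes at that time from 0.03 to 0.61. Afdn, the junction scaffold afadin, fell from 129 ± 4.60 to 58.9 ± 3.61 CPM at 72 h, and Bcam from 309 ± 5.85 to 139 ± 10.6. Pvr, the poliovirus receptor, rose from 23.3 ± 1.99 to 67.7 ± 18 CPM at 6 h and was 20.8 ± 1.84 CPM at 72 h. Pecam1, Cdh5 and Cldn5 of this list, and Erg of the inducers, are also among the 12 endothelial markers.

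Genes that anchor adhesion molecules to the cytoskeleton, store them or shed them numbered 10 of 16 higher and 0 lower at 6 h, 8 and 1 at 24 h, and 10 and 2 at 72 h, with medians of 0.51, 0.48 and 0.80. With library totals these splits were 7 and 1, 11 and 0, and 15 and 0. The shares of all genes higher were 16.3%, 23.7% and 34.2% with TMM and 11.7%, 34.1% and 58.1% with library totals, and the shares lower were 12.2%, 20.2% and 32.2%, and 17.2%, 11.1% and 14.6%. Msn, encoding moesin, rose from 205 ± 0.71 CPM to 386 ± 91.5 at 6 h and 668 ± 178 at 24 h. Cd63, present in Weibel-Palade bodies and lysosomes, rose from 133 ± 4.11 to 450 ± 32.2 CPM at 72 h. Adam10 and Adam17, sheddases of many surface proteins, were not called at 6 or 24 h and rose by 0.99 and 1.02 at 72 h (edgeR adjusted p = 3.18e-07 and 9.63e-07). Vwf, the main cargo of Weibel-Palade bodies, had 68.9 CPM in sham, 98.6 CPM after 6 h, 46.4 CPM after 24 h and 76.0 CPM after 72 h, and was called higher at 6 h (edgeR adjusted p = 0.0495) and lower at 24 h (0.0216).

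Among 24 tested cytokines, receptors and transcription factors known to set the level of endothelial adhesion molecules, 14 were higher and 1 lower at 6 h, 13 and 0 at 24 h, and 14 and 5 at 72 h, or 17 and 1 at 72 h with library totals, and the medians were 0.81, 0.86 and 1.06. Among all genes 16.3%, 23.7% and 34.2% were higher and 12.2%, 20.2% and 32.2% lower, or 58.1% and 14.6% at 72 h with library totals. Il1b had 0.49 CPM in sham and rose to 38.2 CPM by 6 h, with 40.7 CPM after 24 h and 9.21 CPM after 72 h (edgeR adjusted p = 0.00368, 0.00196 and 0.0141), and Il6 was 26.3 CPM at 6 h from 0.035 in sham (0.000561). Tnf had 0.68 CPM in sham and 1.13 CPM at 6 h (edgeR adjusted p = 0.569) and was called at 24 h only, at 6.54 CPM (0.00414). Its receptor Tnfrsf1a rose from 46.5 ± 2.82 to 127 ± 15.3 CPM at 6 h, and Osmr, the oncostatin receptor, from 21.9 ± 0.93 to 106 ± 18.8. Nfkbia, which NF-kB induces and which holds it back, rose from 44.7 to 110 CPM at 6 h and was 37.2 CPM at 72 h (edgeR adjusted p = 0.00498 and 0.442). Its mean was already 108 CPM at 1 h, a change that was not called (edgeR adjusted p = 0.157). Klf2, Klf4 and Nos3 of this list are known for restraining adhesion molecules in resting endothelium. Klf4 was 59.6 ± 7.35 CPM in sham, 160 ± 7.60 CPM after 1 h, 89.2 ± 8.18 CPM after 6 h and 32.1 ± 8.15 CPM after 72 h, and Klf2 rose from 96.6 to 274 CPM at 1 h (edgeR adjusted p = 0.00325), so these 2 were called at an earlier time than any of the 8 adhesion genes.

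**Figure D5:**
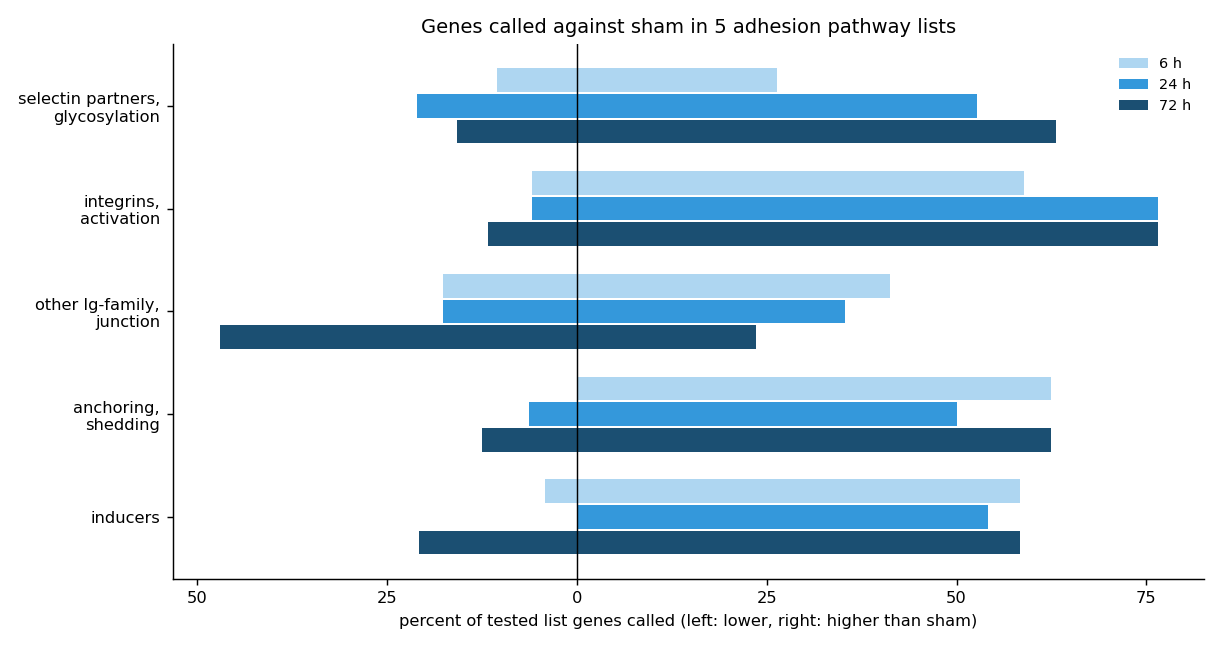
Percent of the tested genes of each of 5 adhesion pathway lists called higher (right of 0) or lower (left of 0) than sham (horizontal axis) at 6, 24 and 72 h (bar shades). Integrin partners reach 13 of 17 higher at 24 and 72 h, and the junction list has 8 of 17 lower at 72 h, which is 3 with scaling by library totals.

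The genes most like each member were found by Pearson's r of log2 CPM over the 18 libraries, among 11707 genes whose mean count was 50 or more; libraries of 1 group share their treatment, so r is a description only. Sele was nearest to Rnd1 (r = 0.96), Pgf (0.94) and Gprc5a (0.94), all highest in mean at 6 h among the times tested. Selp was nearest to Inhbb (0.97), Serpina3n (0.97) and Adamts4 (0.96). Icam1 was nearest to Arid5a (0.97), Rell1 (0.96) and Fosl2 (0.95). Selplg was nearest to Trpv2, Fcgr3 and Rbm47 (0.99 each), and Vcam1 to Nnmt (0.96), Axl (0.95) and Nucks1 (0.95), which have their highest means at 72 h. Jam2 was nearest to Rbfox1, Zbtb20 and Efcab2 (0.98 each), and F11r to Dll4 (0.90), Foxj3 (0.88) and Crim1 (0.87). Icam2 had the lowest best value, 0.85 with Gimap1. Among the members themselves, r was 0.92 for Selp with Icam1, 0.87 for Sele with Icam1 and 0.84 for Sele with Selp, and 0.79 for Selplg with Vcam1. With each group's mean removed these 4 values were 0.65, 0.65, 0.25 and 0.27, while Selplg with Icam1 went from 0.69 to 0.88.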

How the data were processed

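The 8 genes, the lists of partners and markers and the comparisons were chosen with earlier results of these data known, so no list is independent support. RNA was poly(A)-selected and copied from random hexamers, 1 library per mouse, per the labels' protocols. Reads were trimmed with cutadapt 1.18, aligned with HISAT2 2.1.0 to mm10 and counted with featureCounts, per the submitters' processing notes; the annotation and the strand setting are not given in the sources used here. The authors deposited whole-number counts per gene, and FPKM made from the same counts; the FPKM columns of 6 h replicates 2 and 3 held each other's counts and were exchanged here. The lengths in the FPKM matched the exons of GENCODE M21 for all members but Jam2 (5872 against 6045 bases), and 30489 of 30583 gene IDs matched a symbol there. Total counts were 18.2 to 25.1 M per library; counting error and the limit of 3 counts for a count of 0 ignore PCR copies.

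The deposited counts were tested with edgeR 4.0.16 in R 4.3.3: filterByExpr, TMM (factors 0.825 to 1.43), glmQLFit with robust dispersion and 1 mean per group over all 18 libraries, and two-sided glmQLFTest with Benjamini-Hochberg adjustment over 16311 genes. SE is the absolute log2 change over the square root of F. The steps were tested on simulated counts. Alternatives were DESeq2 size factors in edgeR (RLE), library totals, no filter, at least 10 counts in every library (which removes Selp), only the libraries compared, DESeq2 1.42.0, limma 3.58.1 on log2(FPKM + 1), a replicate block, and leaving out each library. Fold changes on the log2(FPKM + 1) scale understate changes of low genes. Named genes were the 8 members, the 3 genes per list with the smallest F-test p, and the 3 genes most like each member by r among genes with recorded symbols; the other list genes were named for their known roles after their values were seen. Nothing in the labels says more of how mice were assigned. Each p-value sets a difference between groups against the spread of these mice within groups, estimated over all 18 libraries. One gene of the lists is counted there but not reported here.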

Additional observations from a re-analysis of the deposited data

Results flagged for a closer look

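For 7 of the 8 adhesion genes the effect at 72 h differed from the effect at 6 h by edgeR's test of that difference, which equals 72 h against 6 h because both share sham. The log2 difference was -2.73 for Sele (edgeR adjusted p = 3.58e-06), -2.17 for Selp (0.00380), -0.91 for Icam1 (0.0148), -0.35 for F11r (0.00157) and -0.71 for Jam2 (3.60e-05). It was 1.69 for Selplg (edgeR adjusted p = 0.0117) and 0.89 for Vcam1 (3.81e-05). In each of these 7 genes all 3 hearts at 72 h stood on 1 side of all 3 hearts at 6 h. Of all genes, 33.9% were higher and 32.6% lower without overlap in this comparison. Of all genes tested, 63% were called in this comparison. With scaling by library totals the difference was -0.20 for Icam1 (edgeR adjusted p = 0.538) and -0.01 for Jam2 (0.921), neither called, and 0.35 for F11r, of opposite sign.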

How the results depend on the processing

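Calls against sham at 6, 24 and 72 h kept direction under every alternative run for Sele, Selp, Selplg, Icam1, Vcam1 and Jam2; F11r and Icam2 did not. Scaling by library totals and limma on log2(FPKM + 1) gave, in that order, 0.30 and 0.29 for Icam2 and 0.32 and 0.30 for F11r at 72 h, 0.040 and 0.028 for Icam2 at 24 h, -0.037 and -0.035 for F11r at 6 h, 0.067 and 0.068 for F11r at 72 h against 24 h, and 0.35 and 0.34 for F11r at 72 h against 6 h. By construction both leave out TMM. Jam2 at 10 min was 0.0015 with RLE, 0.011 with library totals, 0.0026 with DESeq2, 0.0081 with limma and 0.0017 with the replicate block; at 1 h it was -0.022 with library totals, -0.010 with no filter, -0.00072 with at least 10 counts in every library and -0.022 with limma. These uncalled values lie about 0 and the cause was not tested. Leaving out 1 library moved the 10 min values of Sele from -0.36 to 0.19, of Icam2 from -0.15 to 0.0098, of F11r from -0.011 to 0.056 and of Jam2 from -0.036 to 0.031, and the 1 h value of Jam2 from -0.026 to 0.037.

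The count of members called at 24 h against 6 h, 3, was 0 with only the libraries compared and 1 with limma, and 2 to 5 with 1 library left out (5 without 6 h replicate 3); fewer libraries were fitted in the former and the cause was not tested in the latter. At 72 h against 24 h the count of 3 was 2 to 6 with 1 library left out, 6 without 24 h replicate 3. Icam1, at -0.02 in this comparison and not called, was positive in 6 of 26 alternatives. It reached 0.54 with 1 library left out, and its lowest adjusted p over the alternatives was 0.0322. All genes called at 10 min were 12, against 360 with only the libraries compared, 58 with DESeq2 and 1 with limma, and at 1 h 48, against 190, 93 and 40; no member was called in any of these. With 1 library left out, all genes called ranged from 0 to 24 at 10 min, 31 (without sham replicate 2) to 68 at 1 h, 6 (without 10 min replicate 3) to 87 (without 24 h replicate 3) at 1 h against 10 min (50 with all libraries), 2926 to 5319 at 6 h and 2481 to 4712 at 6 h against 1 h (4003); the last 2 were lowest without 6 h replicate 1.

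Same-numbered replicates did not clearly pair. Over 45 such pairs of libraries r of deviations from group means ran from -0.26 to 0.25 (median 0.035, 4 pairs over 0.1). Over 90 pairs with different numbers r ran from -0.35 to 0.45 (median -0.013, 9 pairs over 0.1). Of 18 libraries, 9 were nearest to their own number, and these values cannot exclude a weak pairing. The replicate block gave 6, 6 and 7 members called at 6, 24 and 72 h and changed 0 calls of members against sham. Low counts limit Selp, with 11 reads in the 3 sham hearts together.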
